A study of Mus musculus with 2 samples.

Results

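Across the cell classes of mouse skin, 10 genes of MHC antigen presentation were described: H2-K1, H2-D1 and B2m of class I, and H2-Aa, H2-Ab1, H2-Eb1, Cd74, H2-DMa, H2-DMb1 and Ciita of class II. They were chosen by gene symbol, each matched 1 row, and they make up 10 of the 31053 genes counted. Skin of C57Bl6 mice, 8 weeks old and of both sexes, was profiled by droplet single-cell RNA sequencing (10x Genomics Chromium, which tags each captured RNA molecule with a unique molecular identifier, UMI). One library came from skin given sitagliptin, an inhibitor of the dipeptidyl peptidase DPP4, into the dermis (100 ng in 100 µl PBS), and 1 library from skin given PBS alone. Tissue was taken 48 h later. The sources used here do not say how many animals went into a library. With 1 library per treatment there is no replicate check on any difference between them, so ratios are given with intervals for counting error only and with no test. The names of the deposited files carry, for each library, the first letter of the treatment that its label does not give. The libraries are therefore called sitagliptin-labelled and PBS-labelled, and an exchange of the labels, which was not tested, would turn every direction given between them.

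The sitagliptin-labelled library kept 18380 of 22085 barcodes after filters (500 genes and 1000 UMIs or more, mitochondrial share of 10% or less), with a median of 2197 UMIs per cell. The PBS-labelled library kept 5932 of 10456 barcodes, with a median of 6902.5 UMIs per cell, and 75 barcodes occurred in both. Cells were clustered without MHC and antigen-processing genes and named by markers, and every class name below means a cluster that is like that type by its markers. The makeup differed widely: keratinocyte classes held 17912 sitagliptin-labelled and 3871 PBS-labelled cells. Macrophage-like cells numbered 6 and 467, monocyte-like cells 40 and 576, and fibroblast-like cells 60 and 479, the sitagliptin-labelled library first. Langerhans-like cells numbered 55 in the sitagliptin-labelled library and 94 in the PBS-labelled library. No cluster was named dendritic or B cell at the resolution used.

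Class I molecules, carried by nearly every nucleated cell, consist of a heavy chain (H2-K1 and H2-D1 encode the classical ones in this strain) bound to beta-2 microglobulin, the product of B2m, and show peptides from inside the cell to CD8 T cells. Class II molecules pair an alpha with a beta chain (H2-Aa with H2-Ab1; H2-Eb1 encodes a beta chain whose alpha partner gene is not functional in C57BL/6), and show peptides taken up from outside to CD4 T cells. Cd74 encodes the invariant chain that guards the class II groove, H2-DMa and H2-DMb1 the 2 chains of the peptide editor H2-M, and Ciita the transactivator on which class II transcription depends. In skin, class II belongs chiefly to Langerhans cells of the epidermis and to dendritic cells and monocyte-derived cells of the dermis, while the hair follicle bulge is known for low class I.

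Of the 10 genes, 8 lie on chromosome 17 or 2 in mm10: H2-K1 at chr17:33996017-34000347, H2-Ab1 at chr17:34257689-34269419, H2-Aa at chr17:34282744-34287823, H2-Eb1 at chr17:34305867-34316674, H2-DMa at chr17:34119541-34139101, H2-DMb1 at chr17:34153072-34160230, H2-D1 at chr17:35262730-35267499 and B2m at chr2:122147686-122153083. Ciita lies at chr16:10480059-10528418. All 10 are annotated as protein coding. Promoter windows from 250 bases before to 50 bases after the annotated start were found for 7 of the 10 in the RefSeq table of GRCm38.p6 (not for H2-Ab1, Cd74 and Ciita), and the 6 that hold any of the letters searched are printed. Capitals mark 4 motifs searched on both strands, whose letters were chosen after these windows were read: ATTGG (the Y box), TGACG (part of the X2 box), CTNGNAACT (part of the X1 box) and an NF-kB palindrome that starts and ends in runs of G and C. Positions below are counted from the annotated start, and for H2-K1 and H2-DMa the first of 2 listed starts was used.
H2-Aa, chr17:34287774-34288073, minus strand: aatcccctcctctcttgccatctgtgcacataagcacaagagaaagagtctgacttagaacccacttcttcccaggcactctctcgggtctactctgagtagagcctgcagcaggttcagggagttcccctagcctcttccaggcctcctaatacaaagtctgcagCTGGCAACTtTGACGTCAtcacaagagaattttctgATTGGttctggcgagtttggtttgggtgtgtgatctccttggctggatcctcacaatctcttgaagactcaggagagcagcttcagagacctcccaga
H2-Eb1, chr17:34305617-34305916, plus strand: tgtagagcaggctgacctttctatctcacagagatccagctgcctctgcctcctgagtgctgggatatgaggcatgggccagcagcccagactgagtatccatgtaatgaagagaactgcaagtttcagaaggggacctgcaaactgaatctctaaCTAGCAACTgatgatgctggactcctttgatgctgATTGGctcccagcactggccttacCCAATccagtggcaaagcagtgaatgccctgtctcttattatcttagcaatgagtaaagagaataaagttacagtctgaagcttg
H2-DMb1, chr17:34152941-34153240, plus strand: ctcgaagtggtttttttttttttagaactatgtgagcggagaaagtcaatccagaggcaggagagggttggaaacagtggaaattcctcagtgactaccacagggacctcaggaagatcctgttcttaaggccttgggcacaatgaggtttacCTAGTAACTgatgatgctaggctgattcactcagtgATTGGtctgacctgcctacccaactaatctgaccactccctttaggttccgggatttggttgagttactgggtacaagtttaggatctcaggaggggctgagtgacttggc
H2-K1, chr17:34000298-34000597, minus strand: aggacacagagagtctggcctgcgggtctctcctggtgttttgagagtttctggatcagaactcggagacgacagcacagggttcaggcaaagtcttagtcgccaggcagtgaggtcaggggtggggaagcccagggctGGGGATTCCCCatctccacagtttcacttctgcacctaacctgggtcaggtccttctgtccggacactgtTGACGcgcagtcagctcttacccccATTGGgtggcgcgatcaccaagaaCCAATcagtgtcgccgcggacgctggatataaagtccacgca
H2-D1, chr17:35262844-35263143, plus strand: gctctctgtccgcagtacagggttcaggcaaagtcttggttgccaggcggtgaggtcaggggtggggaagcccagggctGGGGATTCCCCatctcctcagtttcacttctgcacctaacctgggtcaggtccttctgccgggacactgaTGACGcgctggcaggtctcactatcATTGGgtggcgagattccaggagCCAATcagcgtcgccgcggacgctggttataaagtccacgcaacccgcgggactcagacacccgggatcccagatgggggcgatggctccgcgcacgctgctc
B2m, chr2:122147437-122147736, plus strand: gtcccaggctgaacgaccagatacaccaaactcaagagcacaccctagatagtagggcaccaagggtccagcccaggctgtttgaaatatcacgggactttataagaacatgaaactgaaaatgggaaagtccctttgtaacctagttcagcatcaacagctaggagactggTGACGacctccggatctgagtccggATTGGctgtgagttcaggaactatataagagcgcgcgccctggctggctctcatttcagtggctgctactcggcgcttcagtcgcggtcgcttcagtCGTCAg

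The Y box letters occurred in 6 of the 7 windows, against 37.4% of all 32851 promoter windows of the same length. The X1 letters occurred in the 3 class II windows printed, H2-Aa, H2-Eb1 and H2-DMb1, against 4.10% of all windows, and each time upstream of ATTGG. The window of H2-DMa, the fourth class II gene with one, held none of the motifs searched at the first of its 2 listed starts, the only one searched. In H2-Aa the X1 letters began 84 bases and ATTGG 48 bases before the start, and 2 TGACG matches on opposite strands overlapped between them. The TGACG letters occurred in 4 windows (H2-Aa, H2-K1, H2-D1 and B2m), against 20.8% of all windows. The NF-kB palindrome was present in H2-K1 and H2-D1, against 0.0304% of all windows. Another motif, AANNGAAA, part of an interferon-stimulated response element and left in lower case, occurred in H2-Aa, H2-K1, H2-D1 and B2m, against 23.9% of all windows. These are matches of letters, not sites shown to be bound.

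Some members share transcript sequence with relatives, so their counts could hold reads of others. Of the 31-base words in the last 500 bases of their transcripts, 26.4% for H2-K1, 34.5% for H2-D1 and 35.0% for H2-DMb1 also occur in other genes, mainly other class I genes for the heavy chains and H2-DMb2 for H2-DMb1. The other 7 members shared under 1%. The sources used here do not say how such reads were counted.

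Class I transcripts were abundant in every named class with at least 30 cells in a library. Levels are given as CPM, UMIs scaled to 1000000 UMIs of the class, with exact Poisson 95% intervals. The sum of H2-K1, H2-D1 and B2m was, among groups of at least 30 cells, highest in PBS-labelled macrophage-like cells, at 5528 CPM (5441 to 5617), where 99.6% of 467 cells had an H2-K1 UMI. The 6 sitagliptin-labelled macrophage-like cells had 6755 CPM (5724 to 7919). Monocyte-like cells followed with 4442 CPM (4093 to 4813) in the sitagliptin-labelled and 4083 CPM (4015 to 4153) in the PBS-labelled library. T or innate lymphoid-like cells were at 3464 and 3456 CPM in the same order. Leukocyte genes of that class differed between the libraries, as given below. Upper follicle-like keratinocytes had 3691 CPM in the sitagliptin-labelled and 3262 CPM in the PBS-labelled library, and basal keratinocyte-like cells had 3428 and 3066 CPM. Suprabasal keratinocyte-like cells had 2826 and 2320.0 CPM, sitagliptin-labelled first. Outer root sheath or bulge-like cells were lowest among the layers named, with 1758 and 1578 CPM. At 1000 UMIs drawn from each cell, a class I UMI was still found in 91.2% of sitagliptin-labelled and 89.9% of PBS-labelled keratinocytes.

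**Figure D1:**
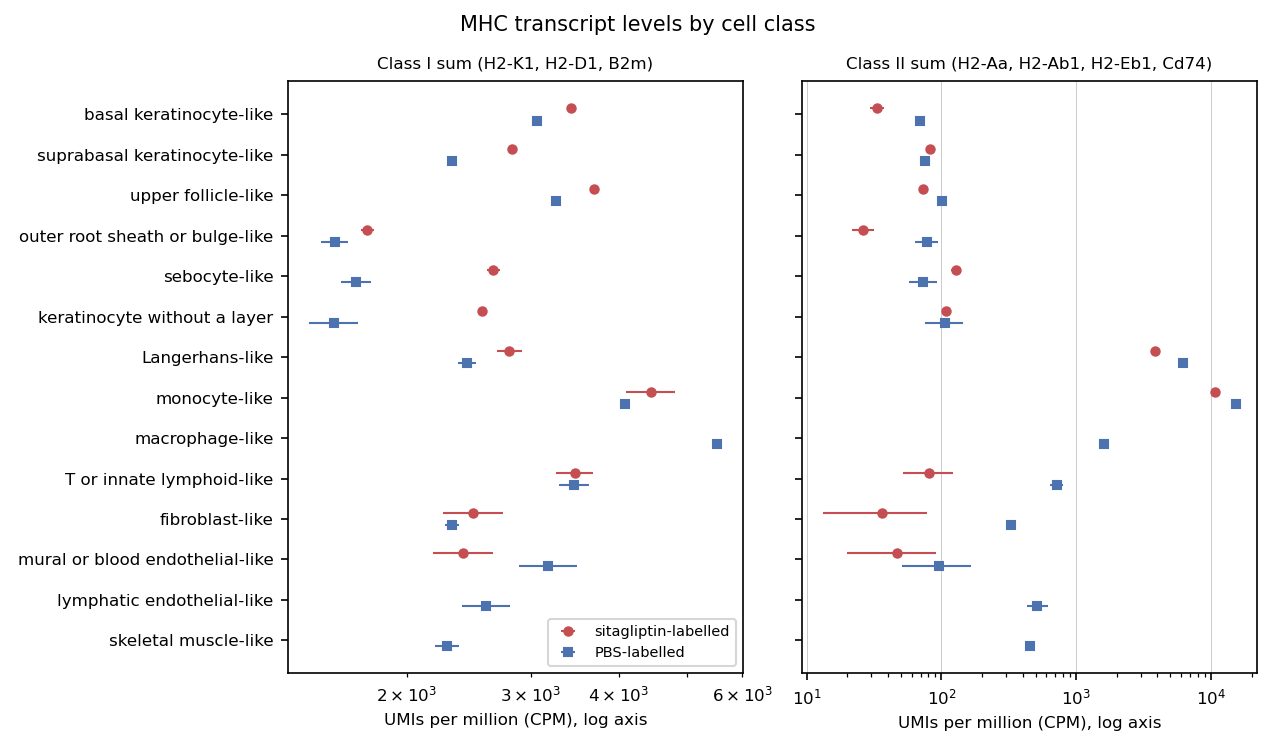
Class I sum (left) and class II sum (right) in CPM on log axes, by cell class, for the sitagliptin-labelled (circles, above) and PBS-labelled (squares, below) library; bars are exact Poisson 95% intervals, and libraries with fewer than 30 cells of a class, and the unnamed cluster 18, are not drawn. Among the groups drawn, class I runs from 1575 CPM in PBS-labelled keratinocytes without a layer to 5528 CPM in PBS-labelled macrophage-like cells, while class II runs from 26.3 CPM in sitagliptin-labelled bulge-like cells to 15262 CPM in PBS-labelled monocyte-like cells.

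Between the libraries, B2m stood apart from the heavy chains. In basal keratinocyte-like cells B2m was at 1337 CPM in the sitagliptin-labelled and 965 CPM in the PBS-labelled library, a ratio of 1.39 (exact binomial 95% interval 1.35 to 1.42). In suprabasal cells it was at 1140 and 760 CPM, sitagliptin-labelled first, a ratio of 1.499 (1.47 to 1.53). In upper follicle-like cells the ratio was 1.32 (1.29 to 1.35), and in outer root sheath or bulge-like cells 1.36 (1.24 to 1.48). B2m was thus higher in the sitagliptin-labelled library in each of these 4 classes, by less than 2-fold. The same gene had a ratio of 1.33 (1.23 to 1.44) in Langerhans-like and 1.31 (1.14 to 1.495) in T or innate lymphoid-like cells, and 0.943 (0.801 to 1.10) in fibroblast-like cells. The Langerhans-like value changed side to 0.878 with each cell thinned to 1000 UMIs and to 0.822 in cells with under 1% keratin UMIs. The T or innate lymphoid-like class also differed in its leukocyte genes between the libraries, as given below.

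H2-K1 differed less. It was at 1360 CPM in sitagliptin-labelled and 1318 CPM in PBS-labelled basal cells, a ratio of 1.03 (1.01 to 1.06), and the ratio was 1.17 (1.15 to 1.19) in suprabasal and 1.08 (1.05 to 1.10) in upper follicle-like cells. H2-D1 went the other way in all 3: it was at 730 CPM against 783 CPM in basal cells, a ratio of 0.933 (0.904 to 0.964), and the ratios were 0.932 and 0.934 in suprabasal and upper follicle-like cells. In these 3 classes the class I transcripts therefore did not move as a unit between the libraries. Clusters 7 and 16 of the outer root sheath or bulge-like class had all 3 ratios above 1. In cluster 7 the ratios were 1.76 for B2m, 1.31 for H2-K1 and 1.35 for H2-D1. In cluster 16 they were 2.05, 1.69 and 1.22, the last with an interval that includes 1 (0.925 to 1.62). In basal cells the H2-K1 difference ended when each cell was thinned to 1000 UMIs, with a ratio of 0.988 (0.926 to 1.05), and in upper follicle-like cells the H2-D1 difference ended at a limit of 5% mitochondrial UMIs, with a ratio of 1.004 (0.949 to 1.06).

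Over all keratinocytes the class I sum was 2923 CPM in the sitagliptin-labelled and 2749 CPM in the PBS-labelled library, a ratio of 1.06 (1.06 to 1.07). That pooled value depends on which clusters each library held: in each of the 13 keratinocyte clusters with at least 30 cells per library the ratio was above 1, from 1.08 to 1.65, and their geometric mean was 1.21. Thinning every cell to 1000 UMIs gave a pooled ratio of 1.003, and averaging the cells' own CPM gave 0.992, on the other side of 1. Of the 13 clusters B2m was above 1 in 13, with a median ratio of 1.40, and H2-D1 below 1 in 10, with a median ratio of 0.930.

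No class I gene was 2-fold apart in the basal, suprabasal, upper follicle-like or outer root sheath or bulge-like class as a whole. Within the last, B2m was at 445 CPM in the sitagliptin-labelled and 217 CPM in the PBS-labelled cells of cluster 16, a ratio of 2.05 (1.56 to 2.72), and had a ratio of 1.76 (1.51 to 2.06) in cluster 7 and 1.31 (1.17 to 1.48) in cluster 17. The 2-fold calls among members, over those with at least 20 UMIs in the class, were 2 of 9 in basal cells (H2-Aa and Cd74, lower), where 3.66% of all genes tested were called and 2.03% were lower, and 0 of 9 in suprabasal cells, where 5.48% were. They were 0 of 9 in upper follicle-like cells (2.92% of all genes) and 3 of 9 in outer root sheath or bulge-like cells (H2-Aa, H2-Ab1 and Cd74, lower; 5.20% of all genes, and 2.01% lower). In sebocyte-like cells 1 of 9 was called (Cd74, higher; 18.6% of all genes, and 12.6% higher). That class compares different cells, since cluster 4 held 1523 of the sitagliptin-labelled and 9 of the PBS-labelled sebocyte-like cells. In keratinocytes without a layer 1 of 9 was called (H2-DMa, higher, on 78 sitagliptin-labelled UMIs and 1 PBS-labelled UMI; 20.1% of all genes, and 13.9% higher), with 40 PBS-labelled cells. Over all keratinocytes 0 of 10 were called, against 6.35% of all genes.

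Low class I was found in part of the follicle in both libraries. Of the 3 outer root sheath or bulge-like clusters, the 2 with the bulge stem cell marker Cd34 among their 10 leading genes (clusters 7 and 16), had low class I. In the sitagliptin-labelled library their 1251 cells had a class I sum of 1317 CPM, against 3428 CPM in the 1441 basal keratinocyte-like cells, a ratio of 0.384 (0.373 to 0.396). In the PBS-labelled library 201 such cells had 870 CPM, against 3066 CPM in 1271 basal cells, a ratio of 0.284 (0.265 to 0.304). All 3 genes took part in both libraries: H2-K1 was 2.59-fold and 3.52-fold lower than in basal cells, H2-D1 2.37-fold and 3.35-fold lower, and B2m 2.76-fold and 3.69-fold lower, the sitagliptin-labelled library first. The third cluster, 17, led by Aspn and without Cd34 among its leading genes, had 3788 CPM in the sitagliptin-labelled and 3505 CPM in the PBS-labelled library. Class I as low was not limited to the Cd34-led clusters: cluster 18, led by Dct and Fam13a and left unnamed, had 1005 CPM (934 to 1079) in 172 sitagliptin-labelled and 928 CPM (869 to 990) in 138 PBS-labelled cells. Its marker score was highest for melanocytes and second for outer root sheath or bulge. Genes at least 2-fold apart between bulge-like clusters and basal cells made up 24.5% of all genes tested in the sitagliptin-labelled and 28.7% in the PBS-labelled library. With each of the other settings tried the ratio stayed below 1, at 0.332 to 0.417 in the sitagliptin-labelled and 0.266 to 0.290 in the PBS-labelled library. The clusters were singled out after their class I levels were seen.

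Of 13 genes that supply and load class I peptides, 3 in the sitagliptin-labelled and 4 in the PBS-labelled library were at least 2-fold lower in the same clusters, where 9.63% and 13% (1473 of 11363) of all genes tested were. In the sitagliptin-labelled library 1 was at least 2-fold higher, so the 4 of 13 apart in each library stand beside the 24.5% and 28.7% of all genes. A ratio under 1 was found for 12 and 11 of the 13; the median log2 ratio, of CPM + 1, was -0.37 and -0.47, against 0.06 and 0.04 over all genes tested. Psmb8, an immunoproteasome subunit, had 37.9 CPM in bulge-like clusters and 87.0 CPM in basal cells of the sitagliptin-labelled library, and 32.3 and 102.1 CPM in the PBS-labelled library. Psmb9, another such subunit, had ratios of 0.306 and 0.345, and Psme2, of the proteasome activator, 0.477 and 0.334. Tap1, a subunit of the peptide transporter, had ratios of 0.553 and 0.308. Tapbpl, a peptide editor, had ratios of 0.636 and 1.21. Tap2, the partner subunit of Tap1, went the other way, with 34.7 CPM in bulge-like clusters and 16.2 CPM in basal cells of the sitagliptin-labelled library, and 32.3 and 19.5 CPM in the PBS-labelled library.

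Of the regulators measured, 3 of 16 in the sitagliptin-labelled and 3 of 17 in the PBS-labelled library were at least 2-fold lower in the bulge-like clusters, and 1 and 0 were at least 2-fold higher. Their median log2 ratios were -0.12 and -0.21. Nlrc5, the class I transactivator, had 12.4 CPM in bulge-like clusters and 24.98 CPM in basal cells of the sitagliptin-labelled library, and 3.12 CPM (3 UMIs) and 28.1 CPM in the PBS-labelled library. Ifngr1, a chain of the interferon gamma receptor, had 51.4 and 145.1 CPM in the sitagliptin-labelled library and 16.7 and 118.9 CPM in the PBS-labelled library. Ifngr2, its partner chain, had ratios of 0.995 and 0.794, and Rfx5, which binds the X box, 1.36 and 1.08. Rfxank, a partner of Rfx5, had ratios of 2.27 and 0.898, Creb1, a CREB family factor, 1.25 and 1.35, and Jak2, a kinase of the interferon gamma receptor, 1.46 and 1.73. Of 9 other class I-like genes, 2 in each library were at least 2-fold higher, and 2 in the sitagliptin-labelled and 5 in the PBS-labelled library at least 2-fold lower. These counts stand beside the same shares of all genes tested. Fcgrt, the neonatal Fc receptor, had ratios of 6.68 and 2.30, and Mr1, which presents vitamin B metabolites, 2.09 and 2.10. H2-M2 had ratios of 0.0960 and 0.111 on 5 and 3 UMIs in the bulge-like clusters, H2-Q7 0.306 and 0.136, and H2-T23 1.30 and 1.56. H2-DMb1 was higher in the bulge-like clusters, at 19.6 CPM against 4.71 CPM in basal cells of the sitagliptin-labelled library (ratio 4.17, 2.79 to 6.32). In the PBS-labelled library it was at 18.7 against 5.52 CPM (3.39, 1.90 to 5.77). Its partner chain H2-DMa had ratios of 1.78 (0.864 to 3.62) and 1.04 (0.273 to 2.84), sitagliptin-labelled first. The class II sum had ratios of 0.745 (0.582 to 0.947) and 1.13 (0.884 to 1.43).

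**Figure D2:**
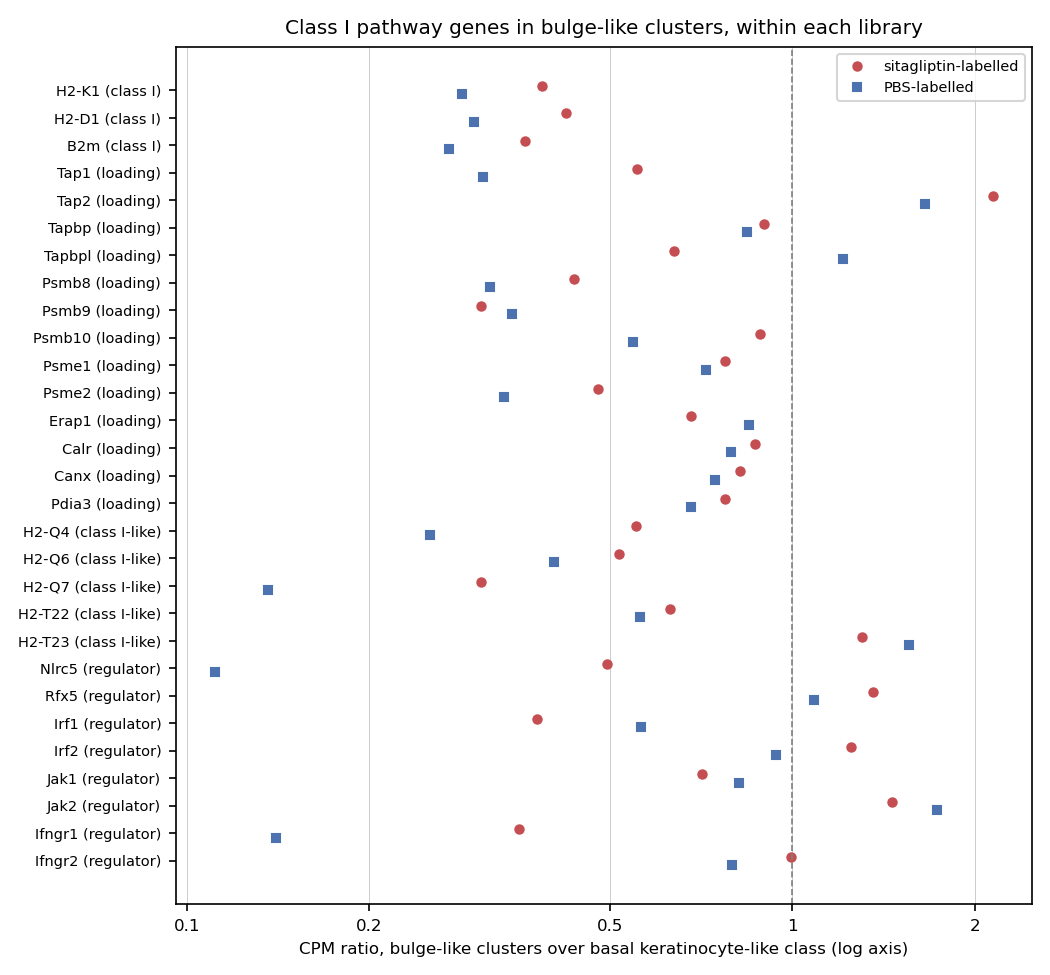
Ratio of CPM in the Cd34-led bulge-like clusters over the basal keratinocyte-like class, on a log axis, within the sitagliptin-labelled (circles) and PBS-labelled (squares) library, for the 3 class I genes, 13 loading genes, 5 class I-like genes and 8 regulators. H2-K1, H2-D1 and B2m lie between 0.271 and 0.422 in both libraries, with Psmb8, Psmb9, Psme2, Nlrc5, H2-Q7 and Ifngr1 below 0.5 in both, and Tap2, H2-T23 and Jak2 above 1.

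The bulge-like clusters also differed between the libraries. Their class I sum was 1319 CPM in the sitagliptin-labelled and 903 CPM in the PBS-labelled library in cluster 7, a ratio of 1.46 (1.34 to 1.59), and 1308 and 794 CPM in cluster 16, a ratio of 1.65 (1.43 to 1.91). Cluster 17, the third, had a ratio of 1.08 (1.01 to 1.16). PBS-labelled cells numbered 142 and 59 in clusters 7 and 16.

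Between treatments the class I loading list did not pass 2-fold in the main keratinocyte classes. Of its 13 genes 0 were called in basal, suprabasal and upper follicle-like cells, where 3.66%, 5.48% and 2.92% of all genes tested were. Its median log2 ratios were -0.09, 0.01 and -0.08, against 0.01, 0.04 and -0.01 over all genes tested. Its highest ratio in basal cells was that of Pdia3, a chaperone of the loading complex (313.9 and 284.4 CPM, sitagliptin-labelled first), and its lowest that of Tapbpl, a peptide editor (11.0 and 15.4 CPM). Over all keratinocytes Psmb8 was lowest, at 56.4 CPM in the sitagliptin-labelled and 78.6 CPM in the PBS-labelled library. Of 11 other class I-like genes, 0 were 2-fold apart over all keratinocytes, where 6.35% of all genes tested were. Of these 11, 10 lay below 1, and H2-M2 was lowest, at 6.98 and 13.1 CPM.

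**Figure D3:**
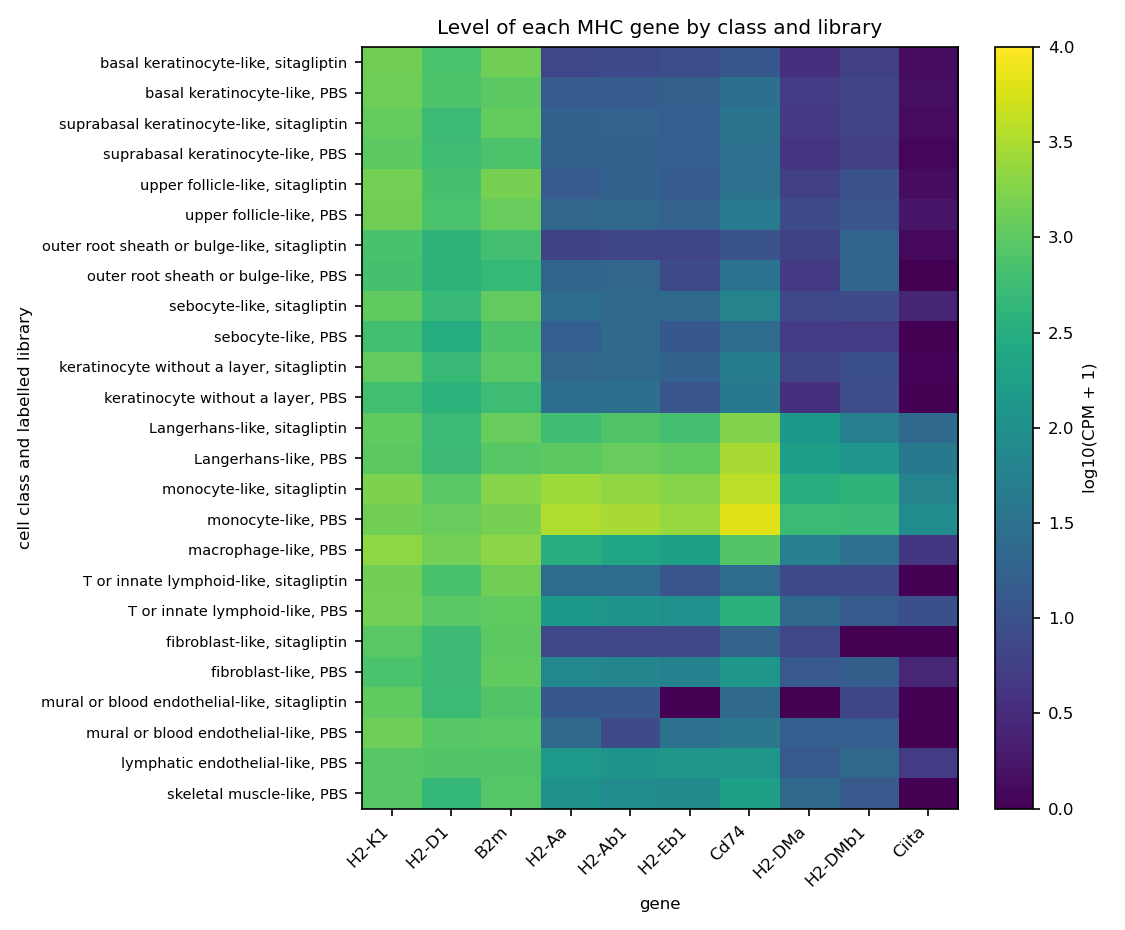
Level of each member as log10(CPM + 1) (colour) by cell class and labelled library (rows, sitagliptin-labelled above PBS-labelled). The 3 class I genes are high in every row, and the 7 class II genes are highest in the monocyte-like and Langerhans-like rows. Of the 7, macrophage-like cells come next for all but Ciita, which is at 3.30 CPM there and at 8.55 CPM in PBS-labelled T or innate lymphoid-like cells.

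Class II levels were highest in monocyte-like and Langerhans-like cells. By class sums monocyte-like cells came first, but most Langerhans-like cells held at least 1% keratin UMIs. Among cells with under 1% keratin UMIs that order turned in both libraries, as given below. The sum of H2-Aa, H2-Ab1, H2-Eb1 and Cd74 was 10669 CPM (10124 to 11236) in the 40 sitagliptin-labelled and 15262 CPM (15129 to 15396) in the 576 PBS-labelled monocyte-like cells. Macrophage-like cells, judged in the PBS-labelled library alone because the other held 6, had 1598 CPM (1551 to 1646). In that library monocyte-like cells were thus above macrophage-like cells in class II and below them in class I. Of all retained class II UMIs, monocyte-like cells held 12.97% in the sitagliptin-labelled and 70.9% in the PBS-labelled library, and keratinocytes 58.8% and 4.97%. Of the sitagliptin-labelled keratinocyte class II UMIs, 58.3% lay in barcodes with 1 or 2 of them.

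In PBS-labelled monocyte-like cells H2-Aa was at 3285 CPM, H2-Ab1 at 3034 CPM, H2-Eb1 at 2371 CPM and Cd74 at 6572 CPM. The peptide editor chains H2-DMa and H2-DMb1 were at 526 and 521 CPM, and Ciita at 88.0 CPM (78.2 to 98.7). Every class II member was lower in macrophage-like cells, where H2-Aa was at 327 CPM, H2-DMa at 54.3 CPM, H2-DMb1 at 30.8 CPM and Ciita at 3.30 CPM (1.51 to 6.27). Cell by cell, 64.6% of the PBS-labelled monocyte-like cells and 2.14% of the macrophage-like cells exceeded 10000 CPM of class II. At the finer clustering, the 285 PBS-labelled cells of the Ly6c2-high part had a class II sum of 11839.7 CPM and an H2-DMa level of 278 CPM. A Retnla-high part of 291 cells had 18360.3 CPM and 749.9 CPM. That part scored higher for macrophage than for monocyte markers (4.32 and 2.86) and had no name at the finer clustering, so its cells go against the monocyte-like name. It had 1.73 CPM of Ly6c2, a monocyte gene, and 925 CPM of Mrc1, a macrophage gene, against 524 and 335 CPM in the Ly6c2-high part. The Ly6c2-high part alone was still above macrophage-like cells in class II, and below them in class I at 4065 CPM (3965 to 4166). It also held more of 2 dendritic cell genes. Cd209a was at 126 CPM there, against 16.5 CPM in macrophage-like cells and 32.4 CPM in the Retnla-high part. Flt3 was at 15.3 CPM, against 0 CPM in both. Whether dendritic cells lay in the Ly6c2-high part was not tested.

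Above 10000 CPM of class II were 83.8% of the PBS-labelled monocyte-like cells with a Ciita UMI and 55.5% of those without one. Of the 372 cells above that level 217 had no Ciita UMI, as did 391 of all 576. In PBS-labelled monocyte-like cells, the 185 with a Ciita UMI had a median class II sum of 20099 CPM and a median of 6062 UMIs, and the 391 without one had 12808 CPM and 3617 UMIs, so depth moved with the split and its part was not tested. Of the 40 sitagliptin-labelled monocyte-like cells, 7 had a Ciita UMI. Relative to the PBS-labelled library, sitagliptin-labelled monocyte-like cells had class II sums with a ratio of 0.699 (0.663 to 0.737) and 0 of 10 members 2-fold apart, while 28.1% of all genes were. The median per cell was 3051 CPM in the sitagliptin-labelled and 15976 CPM in the PBS-labelled library, further apart than the sums. Keratin made up a median of 2.997% of UMIs in these sitagliptin-labelled cells and 0.314% in the PBS-labelled ones, and its part in the ratio was not tested. Among monocyte-like cells with under 1% keratin UMIs, 9 sitagliptin-labelled cells, which held 875 of the 1434 class II UMIs, had 22224 CPM of class II (20776 to 23747) and 483 PBS-labelled cells had 19329 CPM (19147 to 19512).

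**Figure D4:**
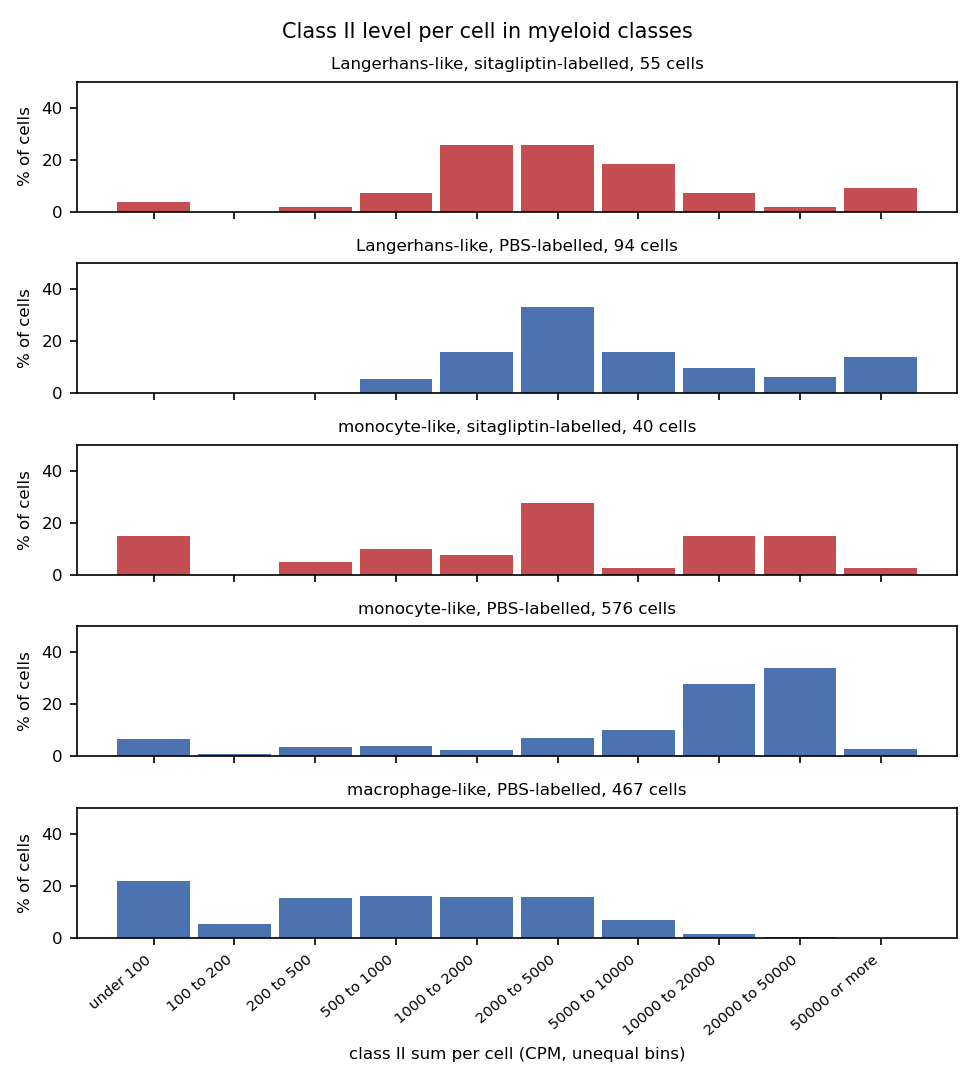
Percent of cells (vertical axis) by class II sum per cell in CPM (horizontal axis, unequal bins) for Langerhans-like and monocyte-like cells of the sitagliptin-labelled (red, upper panel of each pair) and PBS-labelled (blue) library, and for PBS-labelled macrophage-like cells. Most PBS-labelled monocyte-like cells lie above 10000 CPM, most macrophage-like cells lie below 5000 CPM, and Langerhans-like cells spread from under 1000 to over 50000 CPM in both libraries.

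Langerhans-like cells had similar median depths in both libraries, 14630 and 14682.5 UMIs, sitagliptin-labelled first. That depends on the clustering: at the finer one the class held 136 and 94 cells, with a median of 3892.5 UMIs over both libraries. In the class as used here, summed class II was lower in the sitagliptin-labelled library. The class II sum was 3823 CPM (3689 to 3961) in the sitagliptin-labelled and 6180 CPM (6064 to 6297) in the PBS-labelled library, a ratio of 0.619 (0.594 to 0.644). The medians per cell lay closer, at 3384 CPM in the sitagliptin-labelled and 3597 CPM in the PBS-labelled library, and 10 of 55 and 28 of 94 cells exceeded 10000 CPM. H2-Aa had 590 and 985 CPM, H2-Ab1 832 and 1171 CPM, H2-Eb1 655 and 1059 CPM, and Cd74 1746 and 2965 CPM, in the same order. H2-DMb1 had 53.7 and 123.8 CPM, a ratio of 0.434 (0.305 to 0.604), and was the 1 of 10 members at least 2-fold apart, where 6.51% of all genes tested were and 4.89% were lower. H2-DMa had a ratio of 0.767 (0.610 to 0.958), which was 1.05 at a limit of 5% mitochondrial UMIs, and Ciita 0.553 (0.310 to 0.938). Cd207, the gene of the Langerhans cell lectin langerin, was also lower, at 162 CPM in the sitagliptin-labelled and 298 CPM in the PBS-labelled library.

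Keratinocyte RNA moved with that difference. Keratin genes made up a median of 4.49% of UMIs in sitagliptin-labelled and 3.26% in PBS-labelled Langerhans-like cells. Among Langerhans-like cells with under 1% keratin UMIs, 7 sitagliptin-labelled cells had 48683 CPM of class II (44935 to 52661) and 18 PBS-labelled cells had 53847 CPM (51940 to 55806). Both values lay above those of monocyte-like cells under the same limit. In these Langerhans-like cells the ratio was 0.904, with H2-Ab1 at 1.03 (0.846 to 1.25), H2-Aa at 0.768, H2-DMa at 0.873 and H2-DMb1 at 0.536, the last on 7 sitagliptin-labelled UMIs. Ciita went the other way than in the whole class, on few UMIs. It was at 313 CPM (85.2 to 800.3, 4 UMIs) in the sitagliptin-labelled and 161 CPM (73.7 to 305.8, 9 UMIs) in the PBS-labelled cells. Cd207 was at 1563 CPM in these sitagliptin-labelled and 3151 CPM in these PBS-labelled cells. Cells with at least 1% keratin had 3094 CPM in the sitagliptin-labelled (48 cells) and 4603 CPM in the PBS-labelled library (76 cells). The cells low in keratin were shallow, with medians of 1811 and 2632 UMIs.

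Keratinocytes held class II UMIs at a low level, 78.6 CPM in the sitagliptin-labelled and 81.1 CPM in the PBS-labelled library, a ratio of 0.969 (0.930 to 1.01). In the PBS-labelled library 8.76% of keratinocytes (7.89 to 9.69%) had a class II UMI at 1000 UMIs per cell. For fibroblast-like cells of that library the share was 9.60% (7.12 to 12.6%). Median depths before thinning were 8505 and 5497 UMIs, keratinocytes first. Without thinning the shares were 41.0% and 30.5%. The class II level of these fibroblast-like cells was 327 CPM, and how much of either level is free RNA was not tested. Class II UMIs per pan-leukocyte UMI (7 genes such as Ptprc and Tyrobp) were 2.05 (1.93 to 2.17) in those keratinocytes, 1.81 (1.63 to 2.01) in fibroblast-like, 1.78 (1.53 to 2.07) in skeletal muscle-like and 2.42 (2.38 to 2.46) in monocyte-like cells. In the sitagliptin-labelled library 8.47% of keratinocytes (8.07 to 8.89%) and 5.0% of 60 fibroblast-like cells (1.04 to 13.9%) had a class II UMI at 1000 UMIs. There the class II UMIs per pan-leukocyte UMI were 5.35 (5.03 to 5.70) in keratinocytes, 2.89 (2.60 to 3.20) in monocyte-like and 8.52 (7.64 to 9.53) in Langerhans-like cells. Ciita was at 0.339 CPM in sitagliptin-labelled and 0.368 CPM in PBS-labelled keratinocytes, from 28 and 16 UMIs.

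Barcodes with much class II among keratinocytes also held leukocyte RNA. At least 10 class II UMIs were found in 44 of 17912 sitagliptin-labelled and 31 of 3871 PBS-labelled keratinocytes, and these few held 15.8% and 27.2% of the keratinocyte class II UMIs. A pan-leukocyte UMI was present in 86.4% and 87.1% of them, against 5.71% and 32.2% of all keratinocytes, and a Cd207 UMI in 34.1% and 38.7%. Their median depths were 17251 and 23251 UMIs.

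By layer, the class II ratio between libraries varied. In basal cells the class II sum was 33.2 CPM in the sitagliptin-labelled and 69.9 CPM in the PBS-labelled library, a ratio of 0.475 (0.413 to 0.545), with Cd74 at 11.8 and 28.3 CPM. In outer root sheath or bulge-like cells it was 26.3 and 77.7 CPM, a ratio of 0.338 (0.258 to 0.445), and in upper follicle-like cells 73.4 and 100.3 CPM, a ratio of 0.733 (0.673 to 0.797). Suprabasal cells had 81.6 and 76.0 CPM, a ratio of 1.07 (1.01 to 1.15), and sebocyte-like cells 128.5 and 73.4 CPM, a ratio of 1.75 (1.36 to 2.28). The 1 sebocyte-like cluster with at least 30 cells in each library, cluster 22, went the other way, at 9.76 CPM in the sitagliptin-labelled and 64.1 CPM in the PBS-labelled library, a ratio of 0.152 (0.0536 to 0.353). Within clusters the picture was more uniform: 12 of the 13 keratinocyte clusters had a ratio below 1, 11 of them with intervals below 1, and the geometric mean was 0.547. Suprabasal clusters 5, 6, 8 and 11 had ratios of 0.688, 0.448, 0.751 and 0.492. Cluster 19, of late suprabasal cells led by Lor, was the 1 cluster above 1, at 92.2 CPM in the sitagliptin-labelled and 39.8 CPM in the PBS-labelled library, a ratio of 2.32 (1.71 to 3.21). Among keratinocyte clusters, 2 and 4, suprabasal and sebocyte-like, held 2091 and 1523 sitagliptin-labelled cells but 22 and 9 PBS-labelled ones, and had the highest sitagliptin-labelled levels, 165.5 and 152.3 CPM. Pan-leukocyte UMIs over all keratinocytes were at 14.7 CPM in the sitagliptin-labelled and 39.6 CPM in the PBS-labelled library, and 4 of 7 of these genes were at least 2-fold lower, where 2.89% of all genes were. Of 17 myeloid genes outside the MHC, a list that shares genes with the last, 15 were at least 2-fold lower over all keratinocytes. Their median log2 ratio, of CPM + 1, was -2.62, against 0.001 over all genes tested. Mrc1 was lowest, at 0.436 and 8.87 CPM, and Apoe highest, at 6358 and 5544 CPM, sitagliptin-labelled first. In basal cells 14 of 16 were at least 2-fold lower, where 2.03% of all genes were. The part of both lists in the class II ratios was not tested. With all keratinocytes that held a pan-leukocyte UMI left out, the geometric mean over the 13 clusters was 0.583. Leaving out such barcodes does not take free RNA out of the others, so its part was not tested by this step.

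**Figure D5:**
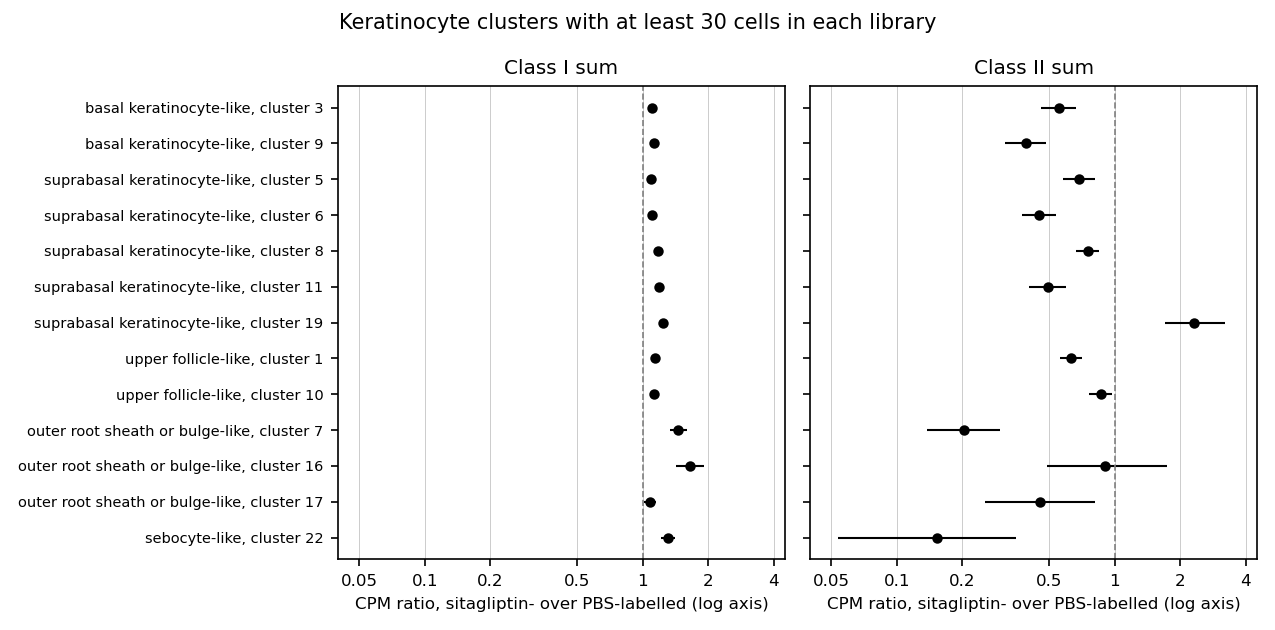
Ratio of the class I sum (left) and class II sum (right), sitagliptin-labelled over PBS-labelled CPM on a log axis, in the 13 keratinocyte clusters with at least 30 cells in each library (rows); bars are exact binomial 95% intervals and the dashed line marks 1. All 13 class I points lie above 1, from 1.08 to 1.65, and 12 class II points lie below 1, the exception being cluster 19 at 2.32.

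Classes that were neither keratinocyte-like nor myeloid also held class II UMIs. Fibroblast-like cells had 36.0 CPM (6 UMIs) in the sitagliptin-labelled and 327 CPM in the PBS-labelled library, a ratio of 0.110 (0.0402 to 0.240). T or innate lymphoid-like cells had 81.4 and 714 CPM, a ratio of 0.114 (0.0721 to 0.173). In that class all 7 of 7 pan-leukocyte genes were also at least 2-fold lower in the sitagliptin-labelled library. They ran from Coro1a, at 6.79 and 134.6 CPM, to Fcer1g, at 176 and 662 CPM, sitagliptin-labelled first. The class held 47 and 100 cells, with median depths of 3434 and 1816.5 UMIs, so its cells may not be alike in the 2 libraries. Mural or blood endothelial-like cells had 46.5 and 96.1 CPM on 8 and 13 UMIs, a ratio of 0.483 with an interval that includes 1 (0.174 to 1.26). In fibroblast-like cells 6 of 9 members and in T or innate lymphoid-like cells 4 of 7 were at least 2-fold apart, all lower in the sitagliptin-labelled library, where 36.4% and 14.9% of all genes were called and 25.4% and 10.4% were lower. Over all retained cells the class II level was 130 CPM in the sitagliptin-labelled and 1242 CPM in the PBS-labelled library, and what share of these values is free RNA was not tested. In mural or blood endothelial-like cells class I was lower in the sitagliptin-labelled library, at 2405 CPM against 3180 CPM in the PBS-labelled library, a ratio of 0.756 (0.659 to 0.868), with 0 of 3 members 2-fold apart and 22.4% of all genes called. PBS-labelled lymphatic endothelial-like and skeletal muscle-like cells had 515 and 456 CPM of class II.

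Of the class II processing genes, 5 of 8 had at least 20 UMIs in keratinocytes and 2 were at least 2-fold lower in the sitagliptin-labelled library, against 2.89% of all genes in keratinocytes. Ctss, the protease that trims the invariant chain, was at 1.67 CPM in the sitagliptin-labelled and 5.10 CPM in the PBS-labelled keratinocytes. In monocyte-like cells Ctss was at 781 and 1154 CPM, and H2-DMb2, a second DM beta chain, at 44.6 and 84.7 CPM. PBS-labelled macrophage-like cells held 806 CPM of Ctss and no H2-DMb2 UMI, which allows up to 1.10 CPM (3 counts). Of 19 regulators measured in keratinocytes, 2 were 2-fold or more lower and 0 higher (2.89% of all genes were lower and 6.35% apart), with Irf2, an interferon regulatory factor, highest at 55.4 and 37.9 CPM, and Batf3 lowest at 0.0605 and 0.345 CPM. Of 4 costimulatory genes measured, 0 were 2-fold apart. Cd86, a costimulatory ligand, had 39.99 CPM (27.4 to 56.5) in sitagliptin-labelled and 49.9 CPM (39.9 to 61.5) in PBS-labelled Langerhans-like cells.

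Over the 25 class and library sums with at least 30 cells, the genes whose level followed class II most closely, by Pearson's r of log2(CPM + 1), were Napsa (0.956), Ncf4 (0.933), Csf1r (0.927), Alox5ap (0.911) and Nfam1 (0.910). Those nearest to class I were Fam111a (0.785), Sh3bgrl3 (0.784), Ptpn1 (0.782), Tpm3 (0.775) and Sat1 (0.773). The points share 2 libraries, so these values only describe the pattern.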

How the data were processed

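Whole numbers of UMI counts per gene and barcode, deposited by the authors for 1 sitagliptin-labelled and 1 PBS-labelled library, were used as they stand; the submitters' processing notes name Cell Ranger 3.1.0 and mm10, and the sources used here do not say how multi-mapping reads and cells were handled. Barcodes were kept from 500 genes and 1000 UMIs upward, with a mitochondrial share of 10% or less. Both libraries were clustered together (scanpy 1.11.5, 2000 variable genes, 30 principal components, 15 neighbours, Leiden resolution 1, leidenalg 0.10.2) with 57 MHC and antigen-processing genes left out. Clusters were named by the leading marker score. One was left unnamed with fewer than 3 markers detected, or when another broad type, such as keratinocyte or immune, scored above 0.35 of the leading score. Within a broad type a lead of 0.5 was needed, and no other type could have more markers among the 10 leading genes. Clusters that failed this were called keratinocytes without a layer or mural or blood endothelial, or left unnamed. Scrublet called 0 and 2 doublets and so did not work here; leaving out the cells with the highest scores was an alternative. UMIs were summed per class and library, divided by the class total to give CPM, and given exact intervals at 95% (Python 3.11.15, numpy 2.4.6, scipy 1.17.1, pandas 2.3.3); ratio intervals were tested on simulated data. Intervals cover counting error only.

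The libraries were compared where both held 30 or more cells of a class, a gene counting as measured with at least 20 UMIs and as called at 2-fold. For shares of cells with a UMI, each cell was thinned to 1000 UMIs. Named genes are the 10 members, the highest and lowest of each list and the 5 genes most like each pattern; in the bulge-like clusters other list genes are named after their values were seen. Members and lists were chosen with earlier results of these data known. A gene of the regulator list is counted with its list and is not reported here. Gene positions are from GENCODE vM21, which matched 31011 of 31053 gene IDs. Alternatives changed the cell filters, depth, CPM total, weighting, resolution, doublets, shared barcodes and mixed barcodes.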

Additional observations from a re-analysis of the deposited data

Results flagged for a closer look

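The class II ratio of the sitagliptin-labelled over the PBS-labelled library lay on both sides of 1 among keratinocyte layers. It was 1.07 in suprabasal keratinocyte-like cells and 1.75 in sebocyte-like cells, against 0.475 in basal, 0.733 in upper follicle-like and 0.338 in outer root sheath or bulge-like cells. These layers went in opposite directions, and the difference between them was not tested. The opposite directions did not hold within the clusters that both libraries shared: the ratio was 0.152 in sebocyte-like cluster 22, and 0.688, 0.448, 0.751 and 0.492 in suprabasal clusters 5, 6, 8 and 11, with suprabasal cluster 19 at 2.32. Cluster makeup moved with it, since cluster 4 held 1523 sitagliptin-labelled and 9 PBS-labelled sebocyte-like cells, and its part was not tested.

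Barcodes left out by the filters also held class I transcripts, a signal outside the comparisons above. Their class I sum was 2672 CPM in 3705 sitagliptin-labelled barcodes and 2447 CPM in 4524 PBS-labelled barcodes, and their class II sum was 102 and 868 CPM.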

How the results depend on the processing

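No paired analysis was possible because each treatment has 1 library. The pooled class I ratio in keratinocytes (1.06) was 1.08 from 1000 genes and 2000 UMIs upward, 1.003 after thinning, 1.03 without mitochondrial, ribosomal and haemoglobin genes, 0.992 as the mean of the cells' CPM, 1.05 at resolution 2, 1.08 without the cells of no layer and 1.21 with clusters weighted equally. The class II ratio in keratinocytes (0.969) was 0.880 with the stricter cell filter, 1.02 as the mean of the cells' CPM, 0.917 at resolution 2, 1.04 without the highest doublet scores, 1.06 without cells that held a pan-leukocyte UMI and 0.904 without the cells of no layer. With clusters weighted equally it was 0.547, and in that form 0.583 without pan-leukocyte cells and 0.565 with the stricter filter; with thinning a cluster at 0 left no value. The class II ratio in Langerhans-like cells (0.619) was 0.529 with the stricter filter, 0.788 at 5% mitochondrial UMIs, 0.673 after thinning, 0.675 as the mean of the cells' CPM, 0.550 at resolution 2 and 0.904 in cells with under 1% keratin. The settings on layers, cluster weights, keratin and the bulge-like clusters were chosen after seeing the data. Of 758 other values over 93 ratios of 1 gene in 1 class, 646 moved within their interval, 103 moved beyond it and 9 changed side. Those 9 were H2-K1 in basal cells after thinning (0.988), H2-D1 in upper follicle-like cells at 5% mitochondrial UMIs (1.004) and in cells of no layer at resolution 2 (0.879), B2m in Langerhans-like cells after thinning (0.878) and with under 1% keratin (0.822), H2-Ab1 there with under 1% keratin (1.03), H2-DMa there at 5% mitochondrial UMIs (1.05), and H2-K1 in mural or blood endothelial-like cells after thinning (1.06) and as the mean of the cells' CPM (1.02). The causes were not tested. Depth limits Ciita most, with 28 UMIs in sitagliptin-labelled and 16 in PBS-labelled keratinocytes.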
